A study of Mus musculus with 12 samples.

Results

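The 9 genes described here, App, Mapt, Apoe, Bin1, Picalm, Clu, Sorl1, Bace1 and Adam10, are linked to Alzheimer disease through the making and clearance of amyloid, through tau or through lipid transport. They were chosen by name, with earlier results of these data known. Their peaks were those of the 6 deposited lists that overlapped the gene's span by at least 1 base on the gene's own strand. The 9 are among 9530 protein-coding genes that had a peak in at least 1 list, and together they held 144 peaks in 45 separate regions. Hippocampus was taken from female WT mice of the C57BL/6 strain, either naturally aged to 18 months (3 lists, called aged here) or 3 months old (3 lists, called young). An antibody against 5-methylcytosine (m5C) pulled down fragmented RNA, and each list holds the places called as enriched in 1 such sample, which had its own input RNA without immunoprecipitation. Nothing in the labels states that the 3 samples at each age were different mice, so every p-value reflects the spread among samples that could be technical.

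The amyloid precursor protein, encoded by App, can be cut by the beta-secretase Bace1 on the way to amyloid-beta or by the alpha-secretase Adam10, which cuts within the amyloid-beta stretch and so prevents its release. The receptor Sorl1 and the endocytic proteins Picalm and Bin1 steer such proteins through the endosome. Mapt encodes tau, the microtubule-binding protein that forms tangles. Apoe and Clu encode lipid-binding proteins that astrocytes secrete. m5C is a methylated base that enzymes of the NSUN family place on RNA. An antibody peak marks a stretch of RNA, depends on how much of the transcript is present as well as on its modification, and does not show which base is modified.

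At the gene starts the peaks can be set against the sequence. Promoter windows of GRCm38.p6 (the mm10 build) from RefSeq were available for 5 of the 9 genes, App, Apoe, Picalm, Sorl1 and Adam10. The windows of 3 genes are shown because a peak began at or just after the listed transcript start in 2 or more lists. Each run goes 5′ to 3′ from 250 bases before the start to 30 bases after it, and capitals mark bases that lay under a peak in at least 1 list.
App, chr16:85173678-85173957, minus strand: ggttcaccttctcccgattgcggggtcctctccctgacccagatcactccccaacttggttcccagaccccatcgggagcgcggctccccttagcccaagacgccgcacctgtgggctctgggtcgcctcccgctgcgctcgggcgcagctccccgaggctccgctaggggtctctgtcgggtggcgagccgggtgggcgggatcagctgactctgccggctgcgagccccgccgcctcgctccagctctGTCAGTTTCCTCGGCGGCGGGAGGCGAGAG
Apoe, chr7:19699159-19699438, minus strand: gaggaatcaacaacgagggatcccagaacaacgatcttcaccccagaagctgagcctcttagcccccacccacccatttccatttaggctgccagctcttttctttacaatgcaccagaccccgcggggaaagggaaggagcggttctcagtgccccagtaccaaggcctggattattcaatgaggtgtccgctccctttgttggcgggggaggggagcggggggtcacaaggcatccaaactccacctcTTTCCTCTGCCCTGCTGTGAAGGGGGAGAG
Picalm, chr7:90129963-90130242, plus strand: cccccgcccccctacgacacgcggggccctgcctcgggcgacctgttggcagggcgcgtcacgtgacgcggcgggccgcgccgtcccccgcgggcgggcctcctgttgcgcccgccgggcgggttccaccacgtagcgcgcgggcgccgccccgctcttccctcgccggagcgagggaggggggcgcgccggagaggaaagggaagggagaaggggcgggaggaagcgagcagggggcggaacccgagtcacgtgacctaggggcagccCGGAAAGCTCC
In App the peak began on the first base of the listed transcript, 1548 bases inside the gene span, in 2 aged and 0 young lists. In Apoe it also began on the first transcribed base of this transcript, in 1 aged and 2 young lists. In Picalm it began 19 bases after the start in 2 aged lists and further inside the gene in the other aged list. G or C made up 71.0% of the full 300-base App window, 57.7% of the Apoe window and 78.0% of the Picalm window, where the median of 32851 windows was 52.7%. The Adam10 window was also rich in these bases, at 73.3%, and had a peak in 1 aged list, which began 15 bases after the listed start. The Sorl1 window at the 5′ end of its span had 72.3% G or C and no peak in any list. Of each 300-base window, 250 bases lie before the listed start, so these percentages do not describe the RNA under the peaks.

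The aged lists held 15189, 14008 and 14294 peaks and the young lists 9887, 8549 and 10392, so any count per list is set beside this difference in length. How many reads lie behind each list is unknown. Of 7 markers of hippocampal neurons, 6 or 7 had a peak in each list, and of 6 astrocyte markers 5 or 6 did in aged and 4 or 5 in young lists. Of 6 inhibitory neuron markers, 2 or 3 had a peak in aged and 0 in young lists. Of 6 microglial markers, 1 or 2 had a peak in each list, and Csf1r, P2ry12, Tmem119 and C1qa had none. Oligodendrocyte markers had a peak in 3, 3 and 4 of 6 genes in aged and 4, 2 and 3 in young lists, endothelial markers in 2 of 4 genes in each aged and 1 in each young list, and choroid plexus markers in 1 of 3 genes in young replicate 3 alone. These are counts of peaks and not levels of RNA, and their part in the results below was not tested. In whole tissue, fewer cells of a type and less RNA per cell cannot be told apart.

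Every aged list had peaks in all 9 genes, and no young list did. The young lists had peaks in 7, 4 and 8 of them. The mean was 9.0 genes in aged and 6.33 ± 2.08 in young lists (SD, n = 3 each), a difference of 2.67 (two-sided exact permutation p = 0.1, the smallest that 3 lists against 3 allow). That is a ratio of 1.42, where the number of all protein-coding genes with a peak, 6777, 6342 and 6450 in aged and 5273, 4894 and 5442 in young lists, gave 1.25. Without young replicate 2, the shortest list, the difference was 1.5. The shares of genes given next come from genes with fewer peaks: over the 6 lists the median was 11 peaks for the 9 genes and 4 for all genes with a peak, or 25.1 and 14.2 per 100 kb of span. App, Mapt, Bin1 and Sorl1 had peaks in all 6 lists, 4 of 9 where 32% of genes with a peak did. All 9 had a peak in all 3 aged lists, against 50.3% of genes with a peak. The same 4 genes had a peak in all 3 young lists, against 36.2%. Picalm had a peak in 3 aged and 0 young lists, a pattern that 4.24% of genes with a peak shared. The reverse, 0 aged and 3 young lists, was found in 0 of the 9 and in 0.808% of genes with a peak.

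The 9 genes together had 31, 31 and 29 peaks in the aged lists and 18, 14 and 21 in the young lists. The groups did not overlap. The mean was 30.3 ± 1.15 in aged and 17.7 ± 3.51 in young lists (SD, n = 3 each), a ratio of 1.72 (exact permutation p = 0.1), where all peaks of the lists gave 1.51. With every list cut to the length of the shortest, keeping the 8549 peaks of highest score, the aged lists still had 24, 25 and 23 peaks on these genes and the young lists 18, 14 and 17. That ratio was 1.47 (exact permutation p = 0.1). For all protein-coding genes it was 1.01, but the cut itself holds that value near equality, so it is no background for the 9 genes. No equal-length value is given for genes with as many peaks as these. As a share of its list, the genes took 0.204%, 0.221% and 0.203% of the peaks in the aged lists and 0.182%, 0.164% and 0.202% in the young ones. The peaks covered 13263, 13859 and 11912 bases of these genes in aged against 10867, 6515 and 9183 in the young ones (exact permutation p = 0.1). Their median width was 193, 193 and 159 bases in aged and 182.5, 183 and 178 bases in young lists, which overlapped.

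**Figure D1:**
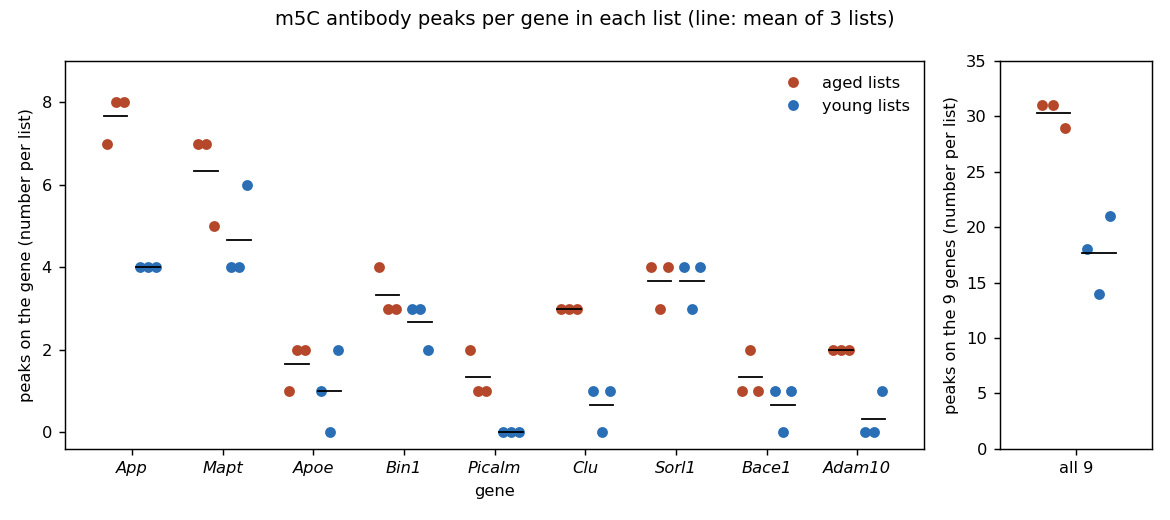
Peaks on each gene (vertical axis, number per list) in the 3 aged lists (left, red) and the 3 young lists (right, blue), with the mean as a line, and at the right the sum over the 9 genes. App, Picalm, Clu and Adam10 had more peaks in every aged than in every young list, Sorl1 had the same numbers at both ages, and the sums were 29 to 31 in aged and 14 to 21 in young lists.

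Gene by gene, App, Picalm, Clu and Adam10 had more peaks in every aged than in every young list, 4 of 9 genes against 11.8% of genes with a peak. None of the 9 had fewer peaks in every aged list, against 0.955%. Among the 1309 genes with 15 or more peaks over the 6 lists, a class that holds App, Mapt, Bin1 and Sorl1, 32.7% had more and 0.535% fewer peaks in every aged list; that minimum was set after the numbers had been seen. Of these 4, App alone had more in every aged list, 1 of 4 genes, which is no larger a share than in the class. In lists of equal length, 3.37% of all genes with a peak had more and 3.43% fewer peaks in every aged list. Of the 9 genes App and Picalm still had more and none had fewer. No equal-length share is given for genes with 15 or more peaks, so 3.37% is not matched to the 9 genes in peak number.

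App had 7, 8 and 8 peaks in the aged lists and 4 in each young list. The groups were 3 peaks apart (exact permutation p = 0.1). No other gene had the same 6 numbers, which was also so for Mapt, where the groups overlapped. In lists of equal length App had 6, 5 and 6 peaks in aged and 4, 4 and 3 in young lists, so the order held with a smaller gap. The peaks formed 9 regions along a span of 222590 bases on chromosome 16 (84952666 to 85175255, minus strand), each 101 to 206 bases wide. Of these, 3 lay close to the middle of the span and were present in all 6 lists.

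The App regions from 85079840 to 85080033 and from 85056324 to 85056526 had the score of 3100 in every list. That exact value was given to 274 to 684 peaks per list, which the score therefore does not rank among themselves. Only 223 of 24044 regions on protein-coding genes, 0.927%, scored 3100 or more in all 6 lists, and these App regions were 2 of them. The third constant region, from 85082776 to 85082888, scored 495.5, 1119 and 1576 in the aged lists and 257.4, 87.5 and 207.1 in the young lists. Of the peaks in the same list, 78.7%, 89.1% and 91.7% scored lower in the aged and 67.9%, 36.8% and 66.0% in the young lists. Scores rank peaks within a list, and lists of different length were not tested against each other on them.

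The other App regions were where the ages differed. The region from 85030232 to 85030365 had a peak in 3 aged and 0 young lists, with scores of 279.4, 295.3 and 497.0. It lay 144.9 kb from the 5′ end, in the part of the gene after the constant regions. The region at the transcript start (85173502 to 85173707) and one from 85024853 to 85025011 had a peak in 2 aged and 0 young lists. Near the 3′ end of the gene, the region from 84965670 to 84965770 was in 3 aged and 2 young lists and the region from 84962722 to 84962868 in 3 aged and 1 young list. The 1 young peak of the last region scored 53.9, close to the lowest score of 50 in that list. No App region was found in more young than aged lists.

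**Figure D2:**
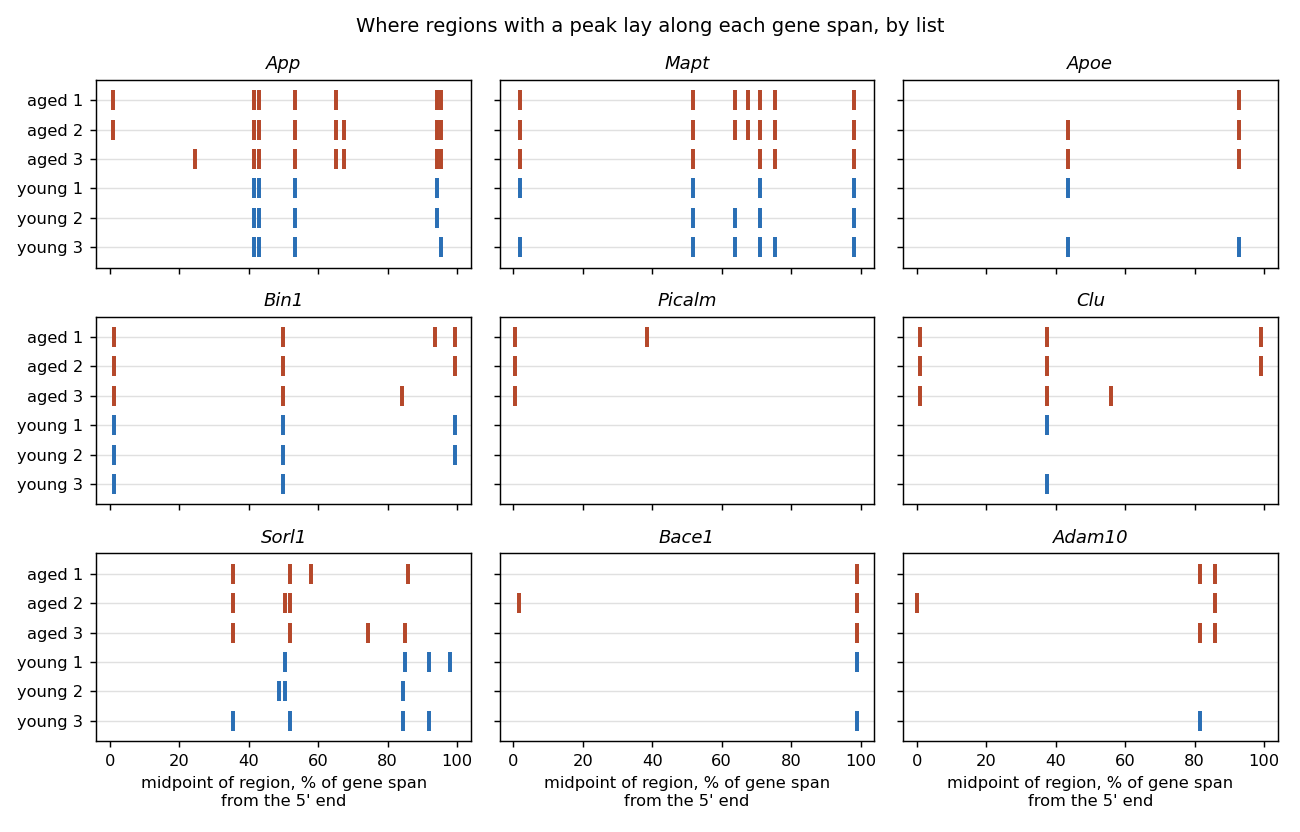
Position of each region with a peak along the gene span (horizontal axis, midpoint as a percentage of the span from its 5′ end) in every list, with the 3 aged lists (red) above the 3 young lists (blue). App and Mapt repeat the same places across lists, Picalm and Clu have marks at the 5′ end in aged lists alone, and the marks of Sorl1 fall in different places from list to list.

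Bace1 and Adam10, the competing secretases, had 6 and 7 peaks over the 6 lists, below the median of 11 for the 9 genes and above that of 4 for all genes with a peak. Bace1 had 1, 2 and 1 peaks in the aged lists and 1, 0 and 1 in the young lists, which overlapped (exact permutation p = 0.6). Its main region ran from 45860054 to 45864399 on chromosome 9, 4346 bases in all, over the 3′ end of the span and past its annotated end at 45862484. It had a peak in 3 aged and 2 young lists, scoring 283.1, 402.0 and 203.2 in aged lists and 616.6 and 535.3 in young replicates 1 and 3. In aged replicate 3 the peak stopped 1 base short of the annotated end. The gene Rnf214 overlaps this end of Bace1 on the other strand, and 5 Bace1 peaks lay over it. The only other Bace1 peak lay at the gene start in aged replicate 2, with a score of 63.7. The strand of Bace1 was taken from peaks that overlapped no other protein-coding span, which left that start peak alone. The strand of Bace1 therefore rests on that low-scoring peak. The 5 peaks lay on the plus strand, opposite to that of Rnf214, so they were not given to Rnf214.

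Adam10 had 2 peaks in each aged list and 0, 0 and 1 in the young lists, so the groups did not overlap (exact permutation p = 0.1). The region from 70765952 to 70766102 on chromosome 9, 87.0 kb from the 5′ end, had a peak in 3 aged and 0 young lists. Its scores were 81.2, 92.0 and 179.5, and 26.6%, 33.1% and 57.3% of the peaks in those lists scored lower. The aged peaks of this region were thus around or below the middle of their lists. The neighbouring region from 70761583 to 70761766 was in 2 aged lists and 1 young list, where it scored 51.3. Cut to equal length, the lists held for Adam10 0, 1 and 1 peaks in aged and 0 in each young list, so the groups overlapped.

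Picalm, a clathrin assembly protein, had 2, 1 and 1 peaks in the aged lists and 0 in each young list. The peak at its start, the region from 90130232 to 90130702 on chromosome 7 whose first bases are shown above, was in all 3 aged lists. It scored 167.3, 141.3 and 109.1, with 54.9%, 49.4% and 40.6% of the list scoring lower. Each aged list of equal length still had 1 Picalm peak and each young list 0. The same 6 numbers occurred in 31 genes, Picalm included.

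Bin1, an amphiphysin of the membrane-bending family, had 4, 3 and 3 peaks in the aged lists and 3, 3 and 2 in the young lists, which overlapped (exact permutation p = 0.6). The region 599 bases inside the span (32377217 to 32377490, chromosome 18) and the region from 32406100 to 32406180 were in all 6 lists with identical ends. The first of these scored 1621, 1503 and 1361 in aged and 526.3, 341.8 and 659.1 in young lists. A long noncoding RNA, A830052D11Rik, overlaps that first site, so 6 Bin1 peaks lay over both annotations. The last 606 bases of the gene had a peak in 2 lists of each age.

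Sorl1, a sorting receptor of the LDL receptor family, had the same numbers at both ages, with 4, 3 and 4 peaks in the aged lists and 4, 3 and 4 in the young lists (difference 0, exact permutation p = 1). At equal list length Sorl1 had 4, 3 and 2 peaks in aged and 4, 3 and 4 in young lists, which overlapped. Its peaks covered 642, 509 and 535 bases in aged and 2062, 479 and 610 in young lists. In young replicate 1 a region of 1595 bases was part of this. The 22 peaks of Sorl1 fell in 11 regions, and none of these was in all 6 lists. Of the 691 genes with at least 22 peaks, 37 (5.35%) likewise had no region in all 6 lists. Of the 11 regions, 5 were in more aged lists, 5 in more young lists and 1 in equal numbers. The regions from 42067797 to 42067989 and from 42041564 to 42041692 on chromosome 9 were in 3 aged lists and in young replicate 3. The regions from 41989354 to 41989466 and from 41977436 to 41977610 were in 2 young and 0 aged lists. Scores ran from 50.7 to 305.2 in aged and from 63.5 to 184.9 in young lists, so no Sorl1 peak came near the upper end of the scale.

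**Figure D3:**
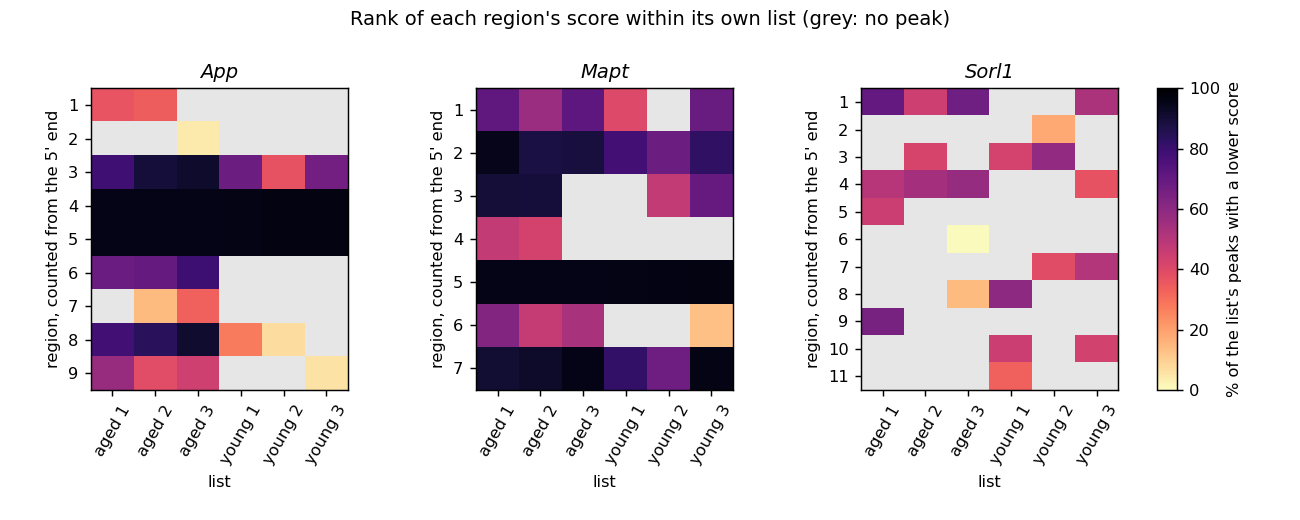
Rank of each region's score within its own list for App, Mapt and Sorl1 (colour, percentage of the list's peaks that scored lower; grey, no peak). Rows are regions in order from the 5′ end and columns are lists. App regions 4 and 5 and Mapt region 5 were near the top of each list, and Sorl1 had no row filled in all 6 lists.

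Mapt, which encodes tau, had 7, 7 and 5 peaks in the aged lists and 4, 4 and 6 in the young lists. The groups overlapped (exact permutation p = 0.2). With equal lengths the numbers were 7, 7 and 5 in aged and 4, 4 and 5 in young lists. The peaks formed 7 regions on chromosome 11 (span 104229409 to 104332090), of which 3 were in all 6 lists and none was in more young than aged lists. The region from 104302361 to 104302410, only 50 bases wide, scored 3100 in all 3 aged lists and 3100, 2979.8 and 3100 in the young lists. The region from 104282368 to 104282480 scored 2975, 939.4 and 1071 in aged and 444.8, 209.5 and 501.7 in young lists.

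The widest Mapt region was the 3′ end of the gene, from 104327972 to its annotated end at 104332090, 4119 bases. It had a peak in all 6 lists and scored 1368, 1594 and 3100 in aged and 582.8, 208.4 and 2613 in young lists. The wide regions at the 3′ ends of Mapt and Bace1 were the broadest of the 45. The region from 104298567 to 104299256 was in 2 aged and 0 young lists and the one from 104306626 to 104306758 in 3 aged and 1 young list. Together Mapt peaks covered 5587, 5714 and 4633 bases in aged against 4475, 4464 and 3759 in young lists, without overlap (exact permutation p = 0.1).

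Both lipoprotein genes lacked a peak in young replicate 2, the shortest list, as did Picalm, Bace1 and Adam10. Apoe, the main carrier of lipid in the brain, had 1, 2 and 2 peaks in the aged lists and 1, 0 and 2 in the young lists, which overlapped (exact permutation p = 0.7). The region at the 3′ end of the gene, from 19696109 to 19697103 on chromosome 7, was in 3 aged lists, scoring 1793, 1232 and 1727. Among young lists it was in replicate 3 alone, with a score of 290.2. The region at the transcript start shown above (19699011 to 19699188) was in 2 lists of each age, with scores of 899.2 and 781.1 in aged replicates 2 and 3 and 634.0 and 147.4 in young replicates 1 and 3.

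Clu, the chaperone clusterin, had 3 peaks in each aged list and 1, 0 and 1 in the young lists, with no overlap between the groups (exact permutation p = 0.1). The region at the first bases of the gene (65968483 to 65968688, chromosome 14) was in 3 aged and 0 young lists and scored 88.8, 170.0 and 217.9. The region from 65973325 to 65973473 was in 3 aged and 2 young lists. It scored 637.4, 1412 and 927.5 in aged lists and 646.8 and 63.8 in young replicates 1 and 3. The last 241 bases of the gene had a peak in 2 aged and 0 young lists. Cut to equal length, the lists held for Clu 1, 2 and 2 peaks in aged and 1, 0 and 0 in young lists, so the groups then overlapped.

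Across the 45 regions on these genes, 28 were in more aged than young lists, 5 in more young than aged lists and 12 in equal numbers. Of the 24044 regions on protein-coding genes, 56.4% were in more aged, 17.7% in more young and 25.9% in equal numbers of lists, against 62.2%, 11.1% and 26.7% on these genes. All 5 regions in more young lists lay in Sorl1. The 4 regions in 3 aged and 0 young lists, 1 each in App, Picalm, Clu and Adam10, were 8.89% of the 45, against 5.18% of all regions. The count was 2 among peaks from the median score of each list upward, 7 when aged replicate 3 was left out and 9 when young replicate 3 was. No region was in 0 aged and 3 young lists, against 0.62%. In all 6 lists there were 8 regions, 17.8%, close to the 17.6% among all regions, and they lay in App, Mapt and Bin1. Of the 33 regions found in 2 or more lists, 25 (75.8%) had the same start and end in each of them, as had 66.6% of such regions on all genes.

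**Figure D4:**
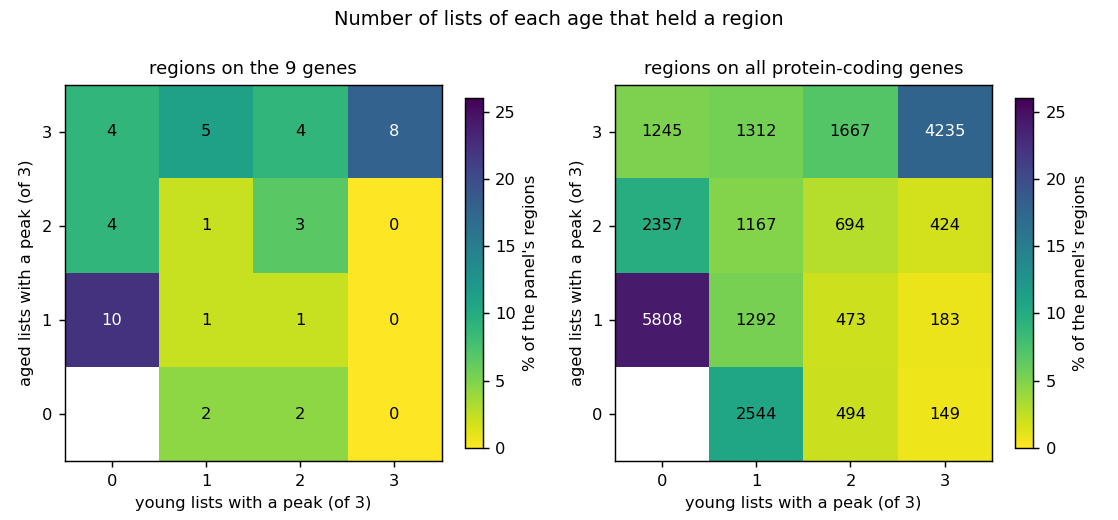
Number of regions (printed in each cell) by how many of the 3 aged lists (vertical axis) and of the 3 young lists (horizontal axis) held them, for the 9 genes (left panel) and all protein-coding genes (right panel), with the colour giving the percentage of the panel's regions. In both panels the cells above the diagonal hold more regions than those below, 28 against 5 on the 9 genes.

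Gene starts were examined after these positions had been seen, and so are given as counts without a test. A peak within 1000 bases of the 5′ end of the span or of a listed transcript start was found in 4, 7 and 4 of the 9 genes in the aged lists and in 2, 1 and 2 in the young lists. Over all protein-coding genes the numbers were 1868, 1850 and 1721 in aged and 1105, 1023 and 1213 in young lists. The ratio of the means was 3.0 for the 9 genes and 1.63 for all genes. Picalm and Clu had such a peak in 3 aged and 0 young lists, a pattern of 7.42% of the 2816 genes with a start peak in any list. App had one in 2 aged and 0 young lists, Bace1 and Adam10 in 1 aged and 0 young lists, Bin1 in 3 lists of each age and Apoe in 2 of each. Mapt and Sorl1 had none within this window. No start was listed for Mapt, Bin1, Clu and Bace1, so for these only the 5′ end of the span was checked. The first Mapt region, 1981 bases inside the span, was in 3 aged and 2 young lists and was not counted. The App start region, 1548 bases inside its span, was counted through its listed start. Counts of start peaks therefore depend on which genes have a listed start. In lists of equal length the mean was 3.67 of the 9 genes in aged and 1.67 in young lists, and with a window of 500 bases it was 4.0 in aged and 0.667 in young lists. At the 3′ end of the span, a window of 1000 bases held a peak in 5, 5 and 3 of the 9 genes in aged and 3, 2 and 2 in young lists. That ratio was 1.86 for the 9 genes and 1.42 for all genes.

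Other genes of the same pathways were read from a list of 59 genes ordered by role. Of these, 44 had a peak in at least 1 list, where 9530 of all 21900 protein-coding spans did. Of the 44, 19 had a peak in all 6 lists, where 32% of genes with a peak did. The 19 were Aplp2, Apbb1, Apbb2, Apba1, Apba2, Lrp1, Sort1, Cd2ap, Vps35, Vps26a, Gsk3a, Cdk5, Mark4, Ppp2ca, Ppp2r2a, Fyn, Ptk2b, Mef2c and Celf1. The number with a peak was 36, 35 and 33 in aged and 33, 29 and 30 in young lists, which touched (exact permutation p = 0.2). The order turned in lists of equal length, with a mean of 24.3 genes in aged and 29.3 in young lists. More peaks in every aged than in every young list were found in 7 of the 44 and fewer in 1, against the 11.8% and 0.955% of all genes with a peak, so the first count was near the background. Fermt2 alone had a peak in 3 aged and 0 young lists, 1 of the 44 against 4.24% of genes with a peak. Ide alone had the reverse, 1 of the 44 against 0.808%.

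The gamma-secretase complex makes the last cut that frees amyloid-beta. Its subunits Ncstn, Aph1a and Aph1b had no peak in any list. Neither the second beta-secretase Bace2 nor the metalloprotease Adam9 had a peak. Of the 10 processing genes, 5 had a peak in at least 1 list and none had one in all 6 lists.

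All 7 App relatives and adaptors had a peak in at least 1 list. Aplp2, a close relative of App, had 7, 7 and 11 peaks in aged and 7, 5 and 7 in young lists, which touched. Apba1, an adaptor that binds the App tail, had 5, 4 and 5 in aged and 1, 1 and 3 in young lists, without overlap. Among clearance genes Lrp1, an endocytic receptor for Apoe, had 7, 8 and 9 peaks in aged and 4, 1 and 7 in young lists. Ide, a protease that degrades insulin and amyloid-beta, had 0 peaks in each aged list and 1, 2 and 1 in young lists. Mme, the protease neprilysin, had none.

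In the sorting group Vps35, a retromer subunit, had 4, 4 and 5 peaks in aged and 2, 2 and 3 in young lists. Sort1, a receptor related to Sorl1, had 4, 6 and 3 in aged and 1, 2 and 1 in young lists. In the tau group Ppp2r2a, a regulatory subunit of a phosphatase that acts on tau, had 7, 6 and 6 peaks in aged and 4 in each young list, and the tau kinase Mark4 had 6, 4 and 4 in aged and 2, 2 and 4 in young lists. The kinases Gsk3a and Cdk5 and the phosphatase subunit Ppp2ca had exactly 1 peak in each of the 6 lists. Snx1 and Mark2 had none.

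The role group called lipid and glia also held genes of other kinds, such as the neuronal Mef2c. It had 8, 7 and 7 members with a peak in aged and 5, 6 and 4 in young lists out of 16 (exact permutation p = 0.1). The means were 7.33 and 5.0. All protein-coding genes with a peak were also more numerous in aged lists, by a ratio of 1.25. The other 5 roles had exact permutation p from 0.4 to 1, and the clearance and sorting genes had slightly lower means in aged lists. Fermt2, an integrin adaptor, had 4, 2 and 3 peaks in aged and 0 in each young list. Mef2c, a neuronal transcription factor, had 4, 4 and 5 in aged and 4, 3 and 4 in young lists, and the kinase Ptk2b had 3, 3 and 4 in aged and 1, 1 and 3 in young lists. No list had a peak in the microglial genes Trem2, Tyrobp, Cd33, Inpp5d and Spi1, or in Epha1 and Cass4.

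**Figure D5:**
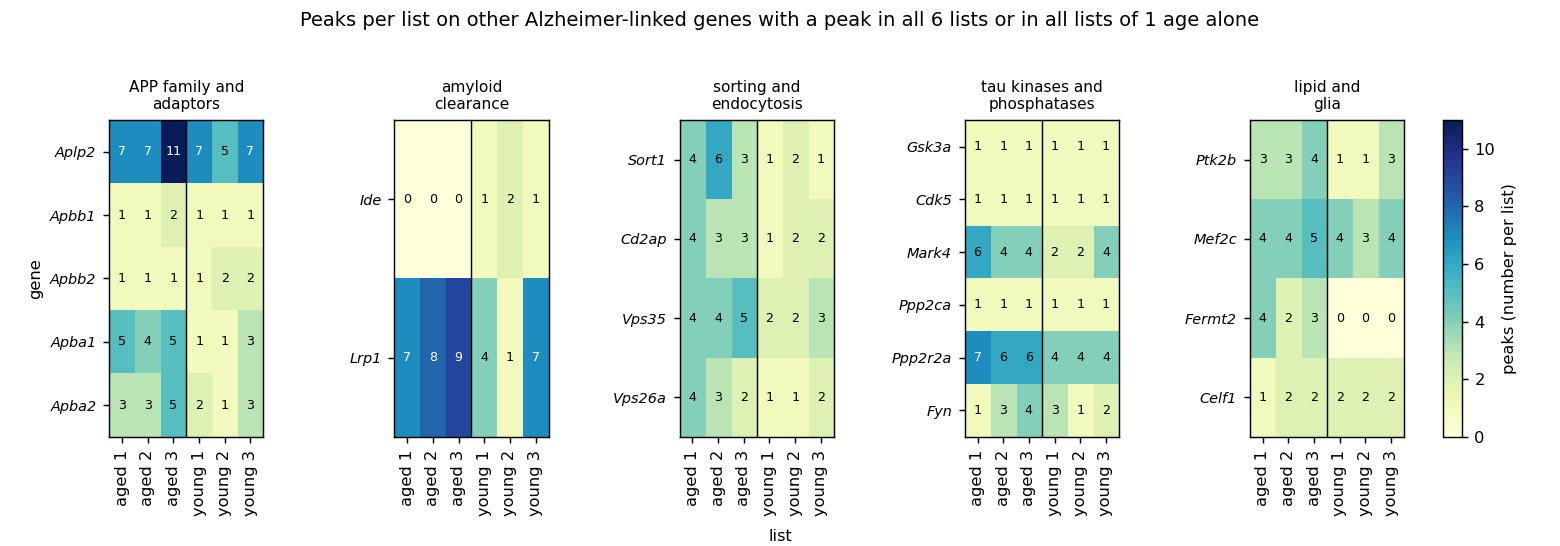
Peaks per list (colour and printed number) on the 19 other Alzheimer-linked genes with a peak in all 6 lists and on Fermt2 and Ide, in panels by role, with the 3 aged lists left of the line and the 3 young lists right of it. Fermt2 is filled in the aged lists alone, Ide in the young lists alone, and Gsk3a, Cdk5 and Ppp2ca hold a single peak in each list.

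By the sum of absolute differences in peak number over the 6 lists, the gene of that list nearest to both App and Mapt was Ppp2r2a, at a sum of 4 for each. Aplp1 was nearest to Apoe and Cdk5r1 to Bace1, each at 1. Mef2c was nearest to Sorl1 and Itm2b to Adam10, each at 2, and Cd2ap to Bin1, at 3. Psen2 and Abca7 tied for Picalm, at 2.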

How the data were processed

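Per the submitters' processing notes, reads were trimmed with cutadapt 1.9.3 and aligned with HISAT2 2.0.4 to mm10. The authors deposited 1 peak list per immunoprecipitated library, and per the labels each list belongs to that library and its own input. The peak names carry the word MACS. The sources used here give neither its version nor its settings. Each peak's score is the authors' own, as deposited, with a lowest value of 50.0 and 274 to 684 peaks per list at exactly 3100. No read counts came with the lists, so depth is unknown and no interval is given.

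Coordinates were read as 0-based and are printed 1-based: 296 to 562 starts per list then fell on a gene start, against 22 to 39 otherwise. Peaks were given to 21900 protein-coding spans of GRCm38.p6. The strand came from the RefSeq promoter table for 5 of the 9 genes. For the other 4 it was that of most peaks that overlapped no other protein-coding span. No exon table was used. Same-strand peaks that touched or overlapped formed a region. Differences between list means were tested with an exact permutation test (two-sided), which cannot go below 0.1 with 3 against 3, so none could pass 0.05. The functions were tested on simulated data, with Python 3.11.15, NumPy 2.4.6 and Matplotlib 3.10.9. The alternatives were score cuts, equal list length, other overlap rules, either strand, leaving out each list and pairing by replicate number.

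The genes and the lists were chosen with earlier results of these data known. Named were all 9 genes and, of the 59 others, those in 3 lists of 1 age and 0 of the other, those with none, those in all 6 lists with values for the 2 with the most peaks per role, and the nearest by peak numbers. A gene these rules name is not reported here. No 2 lists were copies: at most 2 peaks below 3100 shared ends and score between any pair.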

Additional observations from a re-analysis of the deposited data

How the results depend on the processing

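Of 66 recomputed values, 61 were counted as the same. For tested differences this required only the same sign, whatever the size, and for the count of regions a value near the reported one. The design fixes the side of 0.05 on which each p-value falls. The 1 that reversed was the number of other Alzheimer-linked genes with a peak at equal list length, an aged minus young difference of -5.0 instead of 4.0 (exact permutation p = 0.1 and 0.2). The cause was not tested. It was 7.33 with peaks from the median score upward. The count of regions in all aged and no young lists, 4 as reported, moved to 2 with peaks from the median score upward and to 8 when 2 lists of 1 age and none of the other sufficed, where 2 regions were in young lists alone. Leaving out 1 list, which relaxes the rule, gave 4 to 9, with 7 without aged replicate 3 and 9 without young replicate 3. A score of at least 100 gave 6. The difference in genes with a peak was 1.5 to 3.5 and that in peaks 10.8 to 14.3 with 1 list left out. That in bases covered was 3016 at equal list length (exact permutation p = 0.2) instead of 4156. With the replicate number as a block (exact paired sign-flip test), the difference in peaks on the 9 genes was the same 12.7 with exact p = 0.25, the smallest 3 pairs allow. The labels do not pair the samples, and same-numbered lists did not deviate together (correlations -0.0122, 0.00137 and 0.0164 over 24501 regions).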
